A study of Mus musculus with 104 samples.

Results

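Mouse embryonic heads at E8.5 that lacked both Tet1 and Tet2 (double knockout, DKO) were compared with wild-type (WT) heads by RNA sequencing, over all genes. The comparison rests on 4 of the 104 samples of the series, 2 WT and 2 DKO heads, chosen by their labels. The DKO heads have the genotype Tet1-/-;Tet2-/- and the WT heads are given only as WT. Heads were freed of the amnion and cut off at the neck, and RNA was amplified with Smart-seq2, a method for small amounts of RNA. The series design crosses DBA2 males with C57BL/6N females, and the labels give no strain for the DKO embryos, no number of embryos per sample and no statement that replicates came from separate animals. The p-values therefore cover just the spread among the libraries at hand, which may be technical. The same table holds 2 DKO epiblasts at E6.5 and 3 WT epiblasts of another set of the series, which served for the spread and for a comparison of stages.

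Tet enzymes oxidize 5-methylcytosine, the methylated base found mostly at CpG sites, and so start its removal from DNA. Dnmt enzymes write the mark, and many promoters are rich in CpG sites that normally stay unmethylated. The E8.5 head holds the neural plate of the future brain, neural crest, surface ectoderm, mesenchyme and vessels.

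The RNA unit is FPKM, fragments counted relative to transcript length and to the mapped total, as deposited, and its read depth is unknown. The 9 libraries total 459560 to 459595 FPKM and each list 9975 genes at 1 FPKM or more. Among those genes the sorted values differ by at most 0.208% from the first library, rank by rank. From 1 FPKM upwards the columns thus share a common distribution and are not plain FPKM. Below that level the libraries differ, with 6765 to 8774 genes listed at 0. Differences are given as DKO minus WT on the log2(FPKM + 1) scale, which understates the change of low genes. In bulk heads, fewer cells of a type and less RNA per cell cannot be told apart.

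Sex-linked genes separated the groups completely. Xist, the RNA that silences an X chromosome in females, had 7.80 and 9.05 FPKM in WT and 0.0116 and 0.0126 in DKO. The Y-linked gene Eif2s3y, a translation initiation factor, had 0.0952 and 0.0215 FPKM in WT and 45.0 and 42.9 in DKO. Ddx3y, a Y-linked RNA helicase gene, had 0.0290 and 0.0119 FPKM in WT and 13.6 and 15.6 in DKO. Kdm5d and Uty, Y-linked histone demethylase genes, were at most 0.00361 FPKM in WT and at least 4.12 in DKO. Genotype and the level of sex-linked genes therefore moved together in all 4 libraries, and for every result below genotype and sex cannot be told apart.

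Libraries of one group were closer to each other than to the other group. At 2-fold or more, 132 genes differed between the WT heads and 92 between the DKO heads, while 282 to 532 genes differed between a WT and a DKO head. Markers of the head were present in all 4 libraries. Otx2, a regulator of forebrain and midbrain, had 100 and 81.1 FPKM in WT and 82.7 and 82.4 in DKO. The summed level of 27 forebrain and eye field regulators was 396 and 388 FPKM in WT and 293 and 387 in DKO, and that of 26 Hox genes of the hindbrain and trunk was 1.94 and 5.67 in WT and 0.769 and 1.02 in DKO.

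Tet1 transcripts were lower in DKO heads, at 2.55 and 3.33 FPKM in WT and 1.28 and 1.29 in DKO, with a log2 difference of -0.78 ± 0.19 (standard error, SE) that did not pass the threshold (limma adjusted p = 0.157). Tet2 was under 1 FPKM in all heads, with 0.430 and 0.488 in WT and 0.251 and 0.383 in DKO. For both genes each DKO library lay below each WT library, and what part of either gene was deleted is not given in the labels, so that these levels check the genotype only weakly. Tet3, the family member left intact, had 3.48 and 2.99 FPKM in WT and 3.24 and 3.53 in DKO, and its groups overlapped.

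Across all genes, 28 were higher and 19 lower in DKO heads. These 47 genes are 0.433% of the 10867 tested (0.258% higher and 0.175% lower; limma, adjusted p under 0.05), and in all 47 the libraries of the groups did not overlap, as they did not in 60.4% of all genes tested (28.4% higher and 32.1% lower). At 2-fold or more with groups that did not overlap there were 256 genes (2.36%), 138 higher (1.27%) and 118 lower (1.09%). An unadjusted p under 0.05 was reached by 1831 genes (16.8%), and 47.6% of all genes lay above 0. The spread in this test comes from WT heads, DKO heads and DKO epiblasts together. With the 4 head libraries alone, 285 of 10168 genes (2.8%) passed, 147 higher and 138 lower, and all 47 were among them. Without WT replicate 1 or 2 the count was 7 or 10, and without DKO replicate 1 or 2 it was 3 or 8. Hmgn2, Pttg1 and Hist1h2ag passed with each head library left out.

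**Figure D1:**
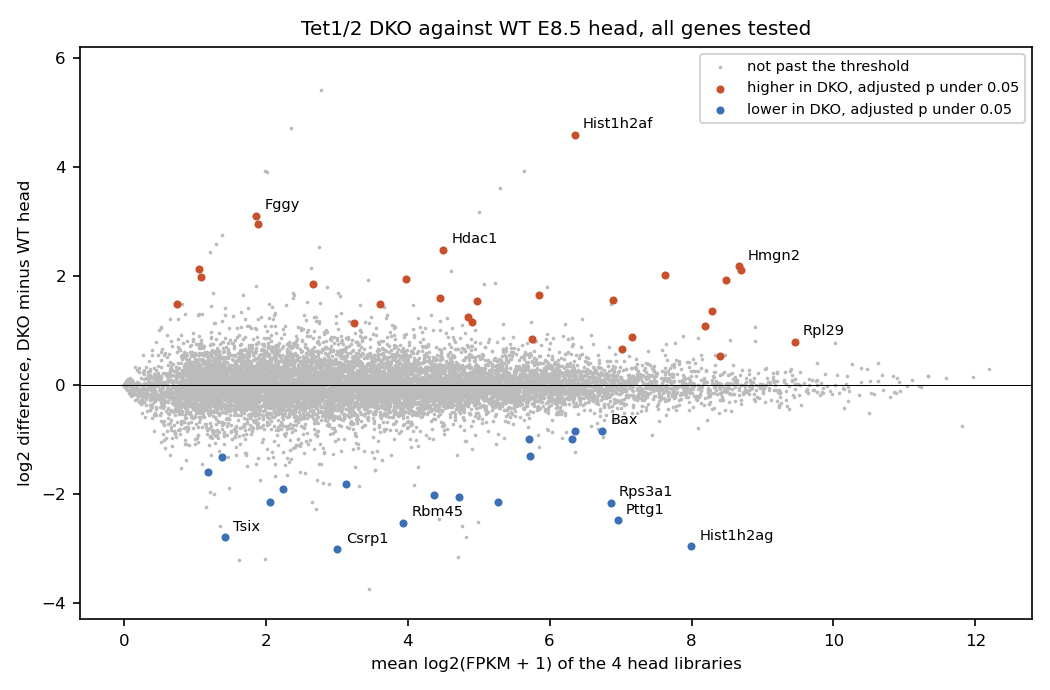
Log2 difference (DKO minus WT head, vertical) against the mean log2(FPKM + 1) of the 4 head libraries (horizontal) for 10867 genes, one point per gene. The 28 genes in red and 19 in blue passed an adjusted p of 0.05, and they lie at all levels of expression.

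Among the called genes lower in DKO, Pttg1 had the highest WT level after Hist1h2ag. Pttg1 encodes securin, the protein that holds back separase until sister chromatids part. It had 289 and 298 FPKM in WT and 55.4 and 48.0 in DKO. The DKO libraries were far below both WT libraries, with a log2 difference of -2.48 ± 0.11 (SE, adjusted p = 0.00184). Rbm45, an RNA-binding protein gene of developing neurons, had 36.2 and 35.6 FPKM in WT and 4.31 and 6.70 in DKO, and fell by 2.53 on the log2 scale (adjusted p = 0.0110).

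Hmgn2 had the smallest adjusted p of all genes. Hmgn2 encodes a small protein that binds nucleosomes and loosens chromatin. Its level was 187 and 194 FPKM in WT and 875 and 852 in DKO. Replicates were within a few percent of each other and both DKO libraries were high, with a log2 difference of 2.17 ± 0.06 (SE, adjusted p = 0.000389). Like other genes of this family it has near-identical copies in the genome that reads could be split over. Tceanc2, whose product resembles a transcription elongation factor, had 0.0616 and 0.0789 FPKM in WT and 3.18 and 3.23 in DKO, and rose by 1.97 (adjusted p = 0.0146).

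The promoters of these 4 genes are shown with their CpG sites, for genes that fell (Pttg1, Rbm45) and genes that rose (Hmgn2, Tceanc2). Each line gives the 250 bases before the transcription start, 5' to 3', from RefSeq (GRCm38.p6, while the files use mm9), with every CpG in capitals. They are chr11:43425982-43426231, minus strand for Pttg1, chr2:76369734-76369983, plus strand for Rbm45, chr4:133967992-133968241, minus strand for Hmgn2 and chr4:107178367-107178616, minus strand for Tceanc2.
Pttg1: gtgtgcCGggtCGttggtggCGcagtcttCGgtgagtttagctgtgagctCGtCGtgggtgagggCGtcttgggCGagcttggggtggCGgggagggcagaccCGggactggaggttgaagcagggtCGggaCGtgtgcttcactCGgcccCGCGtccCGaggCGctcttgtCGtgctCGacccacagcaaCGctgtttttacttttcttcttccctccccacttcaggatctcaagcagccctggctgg
Rbm45: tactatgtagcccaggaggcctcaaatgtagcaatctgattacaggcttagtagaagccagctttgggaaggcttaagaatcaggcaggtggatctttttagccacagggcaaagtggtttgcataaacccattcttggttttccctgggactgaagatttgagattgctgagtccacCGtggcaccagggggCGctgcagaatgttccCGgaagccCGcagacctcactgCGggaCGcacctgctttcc
Hmgn2: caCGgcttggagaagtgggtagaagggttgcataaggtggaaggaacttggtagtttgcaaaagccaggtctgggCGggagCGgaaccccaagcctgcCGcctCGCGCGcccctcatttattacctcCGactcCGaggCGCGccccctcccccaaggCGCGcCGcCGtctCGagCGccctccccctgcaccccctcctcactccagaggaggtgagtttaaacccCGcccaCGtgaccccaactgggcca
Tceanc2: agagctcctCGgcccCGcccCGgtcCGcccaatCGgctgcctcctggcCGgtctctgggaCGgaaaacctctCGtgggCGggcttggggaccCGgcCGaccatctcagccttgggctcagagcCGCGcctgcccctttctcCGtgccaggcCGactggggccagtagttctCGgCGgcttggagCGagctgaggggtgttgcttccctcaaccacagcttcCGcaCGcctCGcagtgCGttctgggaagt
Pttg1, Hmgn2 and Tceanc2 hold 20, 19 and 22 CpG sites in this window, spread over most of it. Rbm45 holds 6, all in the part near the start. The median was 17 sites over the 8669 tested genes with a promoter in the RefSeq table. It was 18 over the 20 genes higher in DKO with a promoter there and 10 over the 16 lower ones. A CpG content at or above 0.6 of that foreseen from base composition was found in 16 of the 20 higher genes (80.0%), in 8 of the 16 lower genes (50.0%) and in 72.5% of all. With the 4 head libraries alone these shares were 71.6% of 109 higher genes and 63.1% of 111 lower genes. Methylation at these promoters in DKO heads was not analysed here.

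Hdac1, Ube2t and Mutyh were among the genes that rose. Hdac1, a histone deacetylase gene, had 8.38 and 8.78 FPKM in WT and 49.3 and 55.9 in DKO. It rose by 2.48 ± 0.14 (SE, adjusted p = 0.00441), with both DKO libraries far above both WT libraries. Ube2t, the ubiquitin-conjugating enzyme of the Fanconi anaemia repair pathway, had 5.77 and 8.52 FPKM in WT and 25.7 and 35.0 in DKO (1.95, adjusted p = 0.0484). Mutyh, a DNA glycosylase gene of base excision repair, had 5.17 and 5.68 FPKM in WT and 13.6 and 12.6 in DKO (1.13, adjusted p = 0.0428). The DKO libraries were the high ones for both genes. Other base excision repair genes did not pass, with log2 differences of -0.95 for Neil1, -0.40 for Tdg, -0.41 for Mbd4 and -0.29 for Apex1.

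Fggy and Gm13157 were close to absent in WT heads. Fggy, a carbohydrate kinase gene, had 0.216 and 0.263 FPKM in WT and 9.73 and 9.59 in DKO (3.10 ± 0.20, SE, adjusted p = 0.00630). Gm13157, a predicted gene, had 0.310 and 0.356 FPKM in WT and 9.87 and 8.67 in DKO (2.94 ± 0.19, adjusted p = 0.00630). Both were well above these WT head levels in WT epiblasts, at 3.77 to 7.21 and 19.1 to 25.7 FPKM. Gm13251, another predicted gene, had 2.16 and 2.56 FPKM in WT heads and 10.4 and 11.8 in DKO heads (1.85, adjusted p = 0.0399). The RNA genes 5730507C01Rik and 1700030C10Rik were under 0.03 FPKM in both WT heads and had 3.25 and 3.47, and 1.68 and 1.95 FPKM, in the DKO heads.

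Pfas, Lamtor3 and Scoc rose by similar steps. Pfas, an enzyme of purine synthesis, had 11.1 and 12.2 FPKM in WT and 35.9 and 38.2 in DKO (1.59, adjusted p = 0.00844). Lamtor3, part of the Ragulator complex that brings mTORC1 to lysosomes, had 16.1 and 19 FPKM in WT and 55.1 and 50.6 in DKO (1.54, adjusted p = 0.0116). Scoc, a coiled-coil protein gene of the Golgi and autophagy, had 28.4 and 35.1 FPKM in WT and 99.5 and 102 in DKO (1.64, adjusted p = 0.0110). In each of these genes the lower DKO library exceeded the higher WT library more than 2-fold.

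Snhg6, Trmt61b and Stmn1 also rose. Snhg6, a host gene of small nucleolar RNA, had 64.7 and 72.3 FPKM in WT and 211 and 193 in DKO (1.55, adjusted p = 0.0138). Trmt61b, a tRNA methyltransferase gene of mitochondria, had 6.86 and 5.81 FPKM in WT and 19.3 in both DKO heads (1.47, adjusted p = 0.0185). Stmn1, which encodes stathmin, a protein that destabilizes microtubules in neural progenitors, had 198 and 200 FPKM in WT and 458 and 388 in DKO (1.08, adjusted p = 0.0217). DKO libraries were the high ones in each. The remaining risers outside the histones and ribosomal proteins had log2 differences from 1.25 down to 0.53. They were Ublcp1, a phosphatase gene of the proteasome, Btf3l4, Snrpb2 of the U2 splicing particle, the translation initiation helicase gene Eif4a1 and Ywhaq, a 14-3-3 protein gene.

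**Figure D2:**
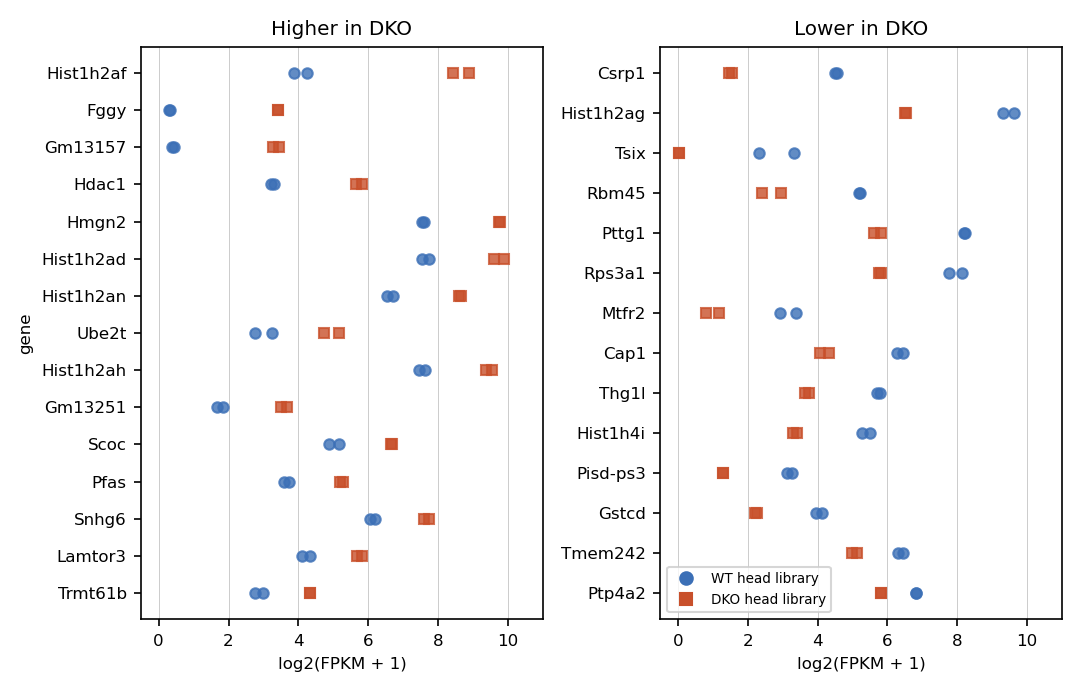
Level (log2(FPKM + 1), horizontal) of called genes with a mean of 5 FPKM or more in one of the groups, one symbol per head library. Shown are the 15 that rose most (left) and 14 of the 15 that fell most (right). Blue circles are WT and red squares DKO, and only genes whose groups did not overlap were eligible.

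Csrp1 had the largest fall among the called genes. It encodes a LIM-domain protein of the actin cytoskeleton that is abundant in smooth muscle. Levels were 21.5 and 22.3 FPKM in WT and 1.76 and 1.93 in DKO, with a log2 difference of -3.01 ± 0.34 (SE, adjusted p = 0.0428). Cap1, which helps recycle actin subunits, had 76.3 and 85.4 FPKM in WT and 15.8 and 19.2 in DKO (-2.15, adjusted p = 0.00635). WT libraries were the high ones for both genes, by more than 10-fold in Csrp1.

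Thg1l, Mtfr2 and Mrpl34 were among the others that fell. Thg1l, which adds a guanine to histidine tRNA, had 51.1 and 54.4 FPKM in WT and 11.4 and 12.4 in DKO (-2.06, adjusted p = 0.00441). Mtfr2, a regulator of mitochondrial fission, had 9.38 and 6.53 FPKM in WT and 1.25 and 0.753 in DKO (-2.15, adjusted p = 0.0309). Mrpl34, a protein gene of the mitochondrial ribosome, had 118 and 99.7 FPKM in WT and 60.7 and 59.1 in DKO (-0.85, adjusted p = 0.0468). All 3 genes had every DKO library below every WT library.

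Bax, which encodes a protein that opens the mitochondrial membrane in apoptosis, had 145 and 139 FPKM in WT and 76.9 and 80.9 in DKO (-0.84 ± 0.08, SE, adjusted p = 0.0228). Ptp4a2, a phosphatase gene, had 111 FPKM in both WT heads and 55.7 in both DKO heads (-0.99, adjusted p = 0.0255). The replicates of these genes differed by much less than the groups. Bax was the 1 called member among 24 tested p53 targets and apoptosis genes, beside 0.433% of all genes, and their median difference was 0.06 beside -0.02 over all genes tested.

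Of the remaining genes that fell, Gstcd had 16.4 and 14.6 FPKM in WT and 3.61 and 3.77 in DKO, and Tmem242, a membrane protein gene, 86.6 and 78.1 in WT and 30.8 and 34.2 in DKO. The pseudogene Pisd-ps3 had 7.73 and 8.55 FPKM in WT and 1.45 and 1.43 in DKO. Tmc4, a gene of the transmembrane channel-like family, had 2.90 and 3.40 in WT and 0.726 and 0.600 in DKO. Adjusted p was 0.0144, 0.0116, 0.0110 and 0.0468 for these 4 genes, and the WT heads were the high ones in each. Tsix, the antisense partner of Xist, had 9.02 and 4.01 FPKM in WT and 0.0231 and 0.0148 in DKO (-2.80, adjusted p = 0.0468), and without strand its reads cannot be told from those of Xist.

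Replication-dependent histone genes of the Hist1 cluster moved in both directions. Histones of this kind are made in S phase from many short, near-identical genes, so reads may be split unevenly over copies and single genes are uncertain. Hist1h2af had 18.0 and 13.6 FPKM in WT and 472 and 341 in DKO (4.59 ± 0.25, SE, adjusted p = 0.00441). Hist1h2ag went the other way, with 793 and 636 FPKM in WT and 91.8 and 89.5 in DKO (-2.96 ± 0.11, adjusted p = 0.00182). Hist1h2ad, Hist1h2an, Hist1h2ah and Hist1h2ai rose by 2.12, 2.01, 1.93 and 1.36, and Hist1h4i fell by 2.03 on the log2 scale. Summed over 11 Hist1h2a genes, the level was 1883 and 1574 FPKM in WT and 3504 and 3028 in DKO. Of the 10 Hist1h2a genes tested, 5 were called higher and 1 lower. The 10 Hist1h4 genes summed to 957 and 1050 FPKM in WT and 791 and 696 in DKO, the 15 Hist1h2b genes to 136 and 131 and to 93.6 and 71.3, and the 9 Hist1h3 genes to 166 and 114 and to 88.9 and 92.9. In summed FPKM, H2a genes were higher and the other 3 classes lower in both DKO heads than in both WT heads. Whether these FPKM follow the amount of histone RNA after this amplification was not tested, for single genes or for sums.

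Of 75 tested ribosomal protein genes 2 rose, among them Rpl29, beside 0.258% of all genes, and 0 fell past the threshold (limma). An unadjusted p under 0.05 in either direction was reached by 17 of them, beside 16.8% of all genes. The median was -0.09 beside -0.02, and 26 were above 0. With the 4 head libraries alone 4 were higher and 2 lower, beside 1.45% and 1.36% of all genes. Rpl29 had 571 and 497 FPKM in WT and 926 and 917 in DKO (0.79, adjusted p = 0.0228). Rps3a1, a small-subunit protein gene that the list did not hold, had 278 and 216 FPKM in WT and 55.2 and 52.7 in DKO (-2.16, adjusted p = 0.00635). These genes have many processed copies, and their values are uncertain for that reason.

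The 47 genes were uneven over the genome. Chromosome 4 held 12 of them among 687 tested genes (1.75%), 10 higher and 2 lower, and chromosome 13 held 7 of 424 (1.65%), all of the Hist1 cluster. Among the 12 on chromosome 4 were Hdac1, Hmgn2, Stmn1, Ptp4a2, Cap1, Fggy, Tceanc2, Btf3l4, Mutyh, Gm13157 and Gm13251. Of the 46 genes placed, 27 (58.7%) had at least 1 other called gene among the 20 tested genes on either side, beside 11.4% of all 10761 genes placed. Examples were Pttg1, Ublcp1 and Thg1l on chromosome 11, Csrp1 and Ube2t on chromosome 1, and Hdac1 and Ptp4a2. The 7 Hist1 genes, whose single values are uncertain, are among the 27. With the 4 head libraries alone the share on chromosome 4 was 3.35% and on chromosome 13 4.48%, beside 2.8% in all. Chromosomes 8 and 12 then stood at 3.89% and 3.33%, so that chromosome 4 did not stand out in that setting.

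**Figure D3:**
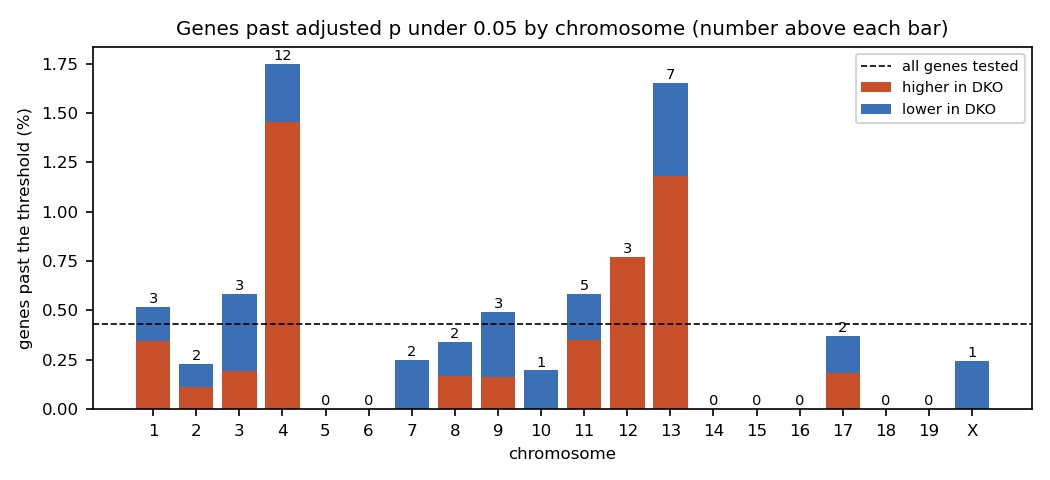
Percent of tested genes past an adjusted p of 0.05 on each chromosome, higher in DKO in red and lower in blue, with the number of genes above each bar. Chromosomes 4 and 13 stand at 1.75% and 1.65%, and the dashed line is the 0.433% of all genes tested.

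The genes beside the targeted loci were looked at in the same way. Among the 100 tested genes nearest to Tet2 on chromosome 3, 2 were called, Gstcd at 3 and Lamtor3 at 14 tested genes from it, beside 0.433% of all genes. With the 4 head libraries alone 3 passed, beside 2.8% of all genes. Gstcd fell and Lamtor3 rose. Among the 100 nearest to Tet1 on chromosome 10, 0 were called by limma with the spread of 3 groups, and 4 passed with the 4 head libraries alone, beside the same 2.8%. The strain of the DNA around these loci in DKO embryos is not given in the labels, and its part in these values was not tested.

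Writers, erasers and readers of DNA methylation had no called gene. Of 30 listed genes 27 were tested, and 0 passed the threshold (limma, 8 at an unadjusted p under 0.05, and 0 with the 4 head libraries alone), 7 lay above 0 and the median was -0.25. Over all genes 0.433% were called, 16.8% had an unadjusted p under 0.05, 47.6% lay above 0 and the median was -0.02. Dnmt1, the maintenance methyltransferase, had 18.6 and 15.3 FPKM in WT and 11.2 and 12.0 in DKO (-0.50, adjusted p = 0.190). Dnmt3a, a de novo methyltransferase, had 7.45 and 7.25 in WT and 4.99 and 5.22 in DKO (-0.45, adjusted p = 0.175). Uhrf1, which guides Dnmt1 to replicating DNA, had 75.4 and 76.3 in WT and 55.9 and 62.2 in DKO (-0.36, adjusted p = 0.189). In these 3 genes both DKO libraries were below both WT libraries by less than 2-fold.

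Further members had larger spread or smaller differences. Dnmt3b, the other de novo enzyme, had 47.6 and 78.0 FPKM in WT and 37.7 and 46.4 in DKO (-0.53, adjusted p = 0.328). Its difference was -0.88 without WT replicate 1 and -0.18 without WT replicate 2. Zfp57, a factor that keeps imprints methylated, had 6.65 and 6.98 in WT and 4.58 and 4.18 in DKO (-0.54, adjusted p = 0.200). Tdg, the glycosylase that removes the oxidized bases made by Tet enzymes, had 7.69 and 4.90 in WT and 4.54 and 4.32 in DKO (-0.40, adjusted p = 0.425). Without WT replicate 1 the Tdg difference was -0.12, and without WT replicate 2 it was -0.68. The glycosylase gene Neil1 had the lowest difference of the list, with 3.82 and 2.50 in WT and 0.868 and 1.42 in DKO (-0.95, adjusted p = 0.265). Trim28, the partner of Zfp57, was at 129 and 123 in WT and 125 and 132 in DKO, and its groups overlapped.

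Germline genes held silent by promoter methylation and imprinted genes were listed as known for their dependence on the mark. Of 53 germline genes listed with values, 18 were tested, with 0 past the threshold and a median of -0.00. An unadjusted p under 0.05 was reached by 1 of them, beside 16.8% of all genes. Their summed level was 15.1 and 29.1 FPKM in WT and 14.9 and 29.3 in DKO, so that the groups overlapped. Of 41 tested imprinted genes, 0 passed (5 at an unadjusted p under 0.05, beside the same 16.8%) and the median was 0.03. At 0.433% of all genes called, 0 calls in lists of this size does not set them apart. Mest, a paternally expressed gene, had 1308 and 1464 FPKM in WT and 1917 and 1733 in DKO (0.40, adjusted p = 0.723). Nnat, a paternally expressed gene of early neural tissue, had 89.5 and 80.4 in WT and 36.7 and 39.3 in DKO (-1.14, adjusted p = 0.132, and 0.0121 with the 4 head libraries alone).

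Regional regulators of the brain had no called gene. At 0.433% of all genes called, 0 calls in lists of this size does not set them apart. Of 20 tested forebrain and eye field regulators, 0 passed (3 at an unadjusted p under 0.05, beside 16.8% of all genes), and the median was -0.08. Irx3, a homeobox gene of posterior forebrain and hindbrain, had 5.38 and 5.06 in WT and 1.68 and 2.42 in DKO (-1.04, adjusted p = 0.104, and 0.0483 with heads alone). Hesx1, of the anterior neural plate, had 66.1 and 99.9 in WT and 32.5 and 64.8 in DKO (-0.81, adjusted p = 0.406). The groups did not overlap in either gene. Rax of the eye field had 10.7 and 9.21 in WT and 5.07 and 14.9 in DKO, so that the DKO heads lay on both sides of WT.

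In the midbrain and hindbrain list, 0 of 15 tested genes passed (4 at an unadjusted p under 0.05, beside 16.8% of all genes). With 0.433% of all genes called, 0 calls does not set apart this list, neural progenitors or early neurons. Gbx2, which marks the anterior hindbrain, had 9.54 and 10.2 FPKM in WT and 2.54 and 4.90 in DKO (-1.25, adjusted p = 0.154). Fgf8, the signal of the boundary between midbrain and hindbrain, had 20.3 and 9.79 in WT and 17.3 and 20.0 in DKO and overlapped. Of 23 tested neural progenitor genes, 0 passed (4 at an unadjusted p under 0.05, beside the same 16.8%), and the median was -0.17. Sox11, a factor of committed neural precursors, was the member farthest from 0, with 21.8 and 16.2 FPKM in WT and 71.9 and 69.9 in DKO (1.86 ± 0.24, SE, adjusted p = 0.0511, and 0.0106 with heads alone). Both DKO heads were more than 3 times as high as the higher WT head. Of 9 tested genes of early neurons, 0 passed (3 at an unadjusted p under 0.05, beside the same 16.8%). Tubb3, a neuronal tubulin, had 56.2 and 58.9 FPKM in WT and 36.0 and 39.9 in DKO (-0.59, adjusted p = 0.224, and 0.0483 with heads alone).

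Neural crest genes lay mostly above 0 without a call. Of 24 listed 20 were tested, and 0 passed, beside 0.433% of all genes, which does not set the list apart. Of the 20, 7 had an unadjusted p under 0.05, 15 lay above 0 and the median was 0.33. Over all genes 16.8% had such a p, 47.6% lay above 0 and the median was -0.02. Cdh6, a cadherin of emigrating crest, had 2.94 and 4.13 FPKM in WT and 15.8 and 11.5 in DKO (1.69 ± 0.22, SE, adjusted p = 0.0568, and 0.0327 with heads alone). Ets1, a crest transcription factor, had 5.19 and 3.63 in WT and 12.1 and 9.57 in DKO (1.14, adjusted p = 0.109). Sox10, a marker of migrating crest, had 3.27 and 2.96 in WT and 5.68 and 5.59 in DKO (0.69, adjusted p = 0.132). The DKO heads were the high ones in all 3. Crabp1, a retinoic acid binding protein of crest and hindbrain, had 461 and 234 FPKM in WT and 724 and 646 in DKO (1.06, adjusted p = 0.201), and Sox9 had 13.7 and 29.1 in WT and 10.4 and 14.0 in DKO (-0.69, adjusted p = 0.384). For Crabp1 the difference without WT replicate 2 was 0.57.

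**Figure D4:**
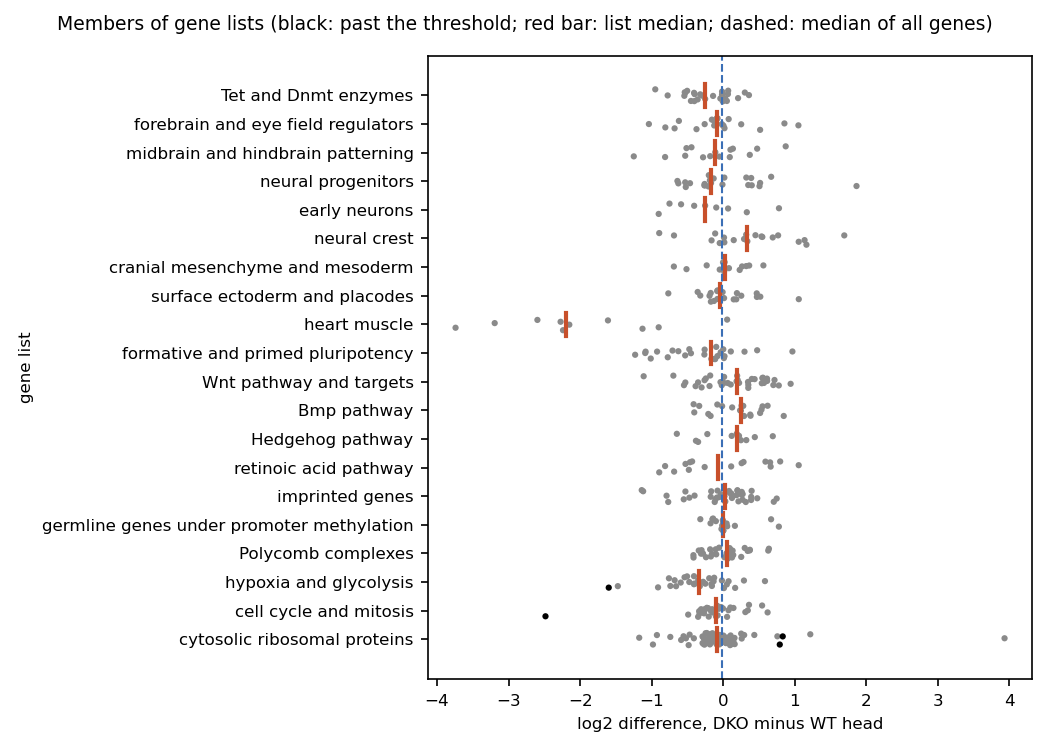
Log2 differences (DKO minus WT head) of the tested members of 20 gene lists, one point per gene, with called genes in black, the list median as a red bar and the median of all genes as a dashed line. Neural crest has a median of 0.33 and heart muscle one of -2.19, and the other medians lie between -0.34 and 0.25.

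Heart muscle transcripts set WT replicate 2 apart. The heart tube lies close under the E8.5 head, and its contractile genes are not known as head genes. The 22 listed genes summed to 51.2 FPKM in WT replicate 1, 241 in WT replicate 2, and 20.3 and 12.7 in the DKO heads. Myl7, an atrial myosin light chain, had 14.4 and 103 FPKM in WT and 3.14 and 1.17 in DKO (-3.74, adjusted p = 0.145, and -2.36 without WT replicate 2). Tnnc1, the calcium sensor of cardiac troponin, had 6.95 and 17.3 in WT and 0.315 and 0.318 in DKO (-3.19 ± 0.40, SE, adjusted p = 0.0511, and 0.0317 with heads alone). Of the 10 tested members 0 passed the threshold, beside 0.433% of all genes. An unadjusted p under 0.05 was reached by 7, beside 16.8% of all genes. The 8 that were at least 2-fold lower without overlap compare with 1.09% of all genes, and members that reached the minimum only through WT heads had to be lower in DKO. Whether heart tissue took part in other results was not tested.

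Globins of primitive red cells set DKO replicate 1 apart. Hbb-bh1 had 0 FPKM in both WT heads and 187 and 2.63 in DKO, and Hba-x 0.111 and 0 in WT and 109 and 1.23 in DKO. Adjusted p was 0.255 and 0.317. The 15 listed red cell genes in the table summed to 26.7 and 23.1 FPKM in WT and 423 and 43.3 in DKO. Tfrc alone had 24.3 and 21.0 in WT and 42.6 and 36.7 in DKO, most of each sum except that of DKO replicate 1. The 22 endothelial genes summed to 71.3 and 77.2 in WT and 79.4 and 50.5 in DKO, and 22 of cranial mesenchyme and mesoderm to 39.4 and 37.1 and to 59.6 and 31.5. In both of these lists the groups overlapped and DKO replicate 1 was the highest library.

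**Figure D5:**
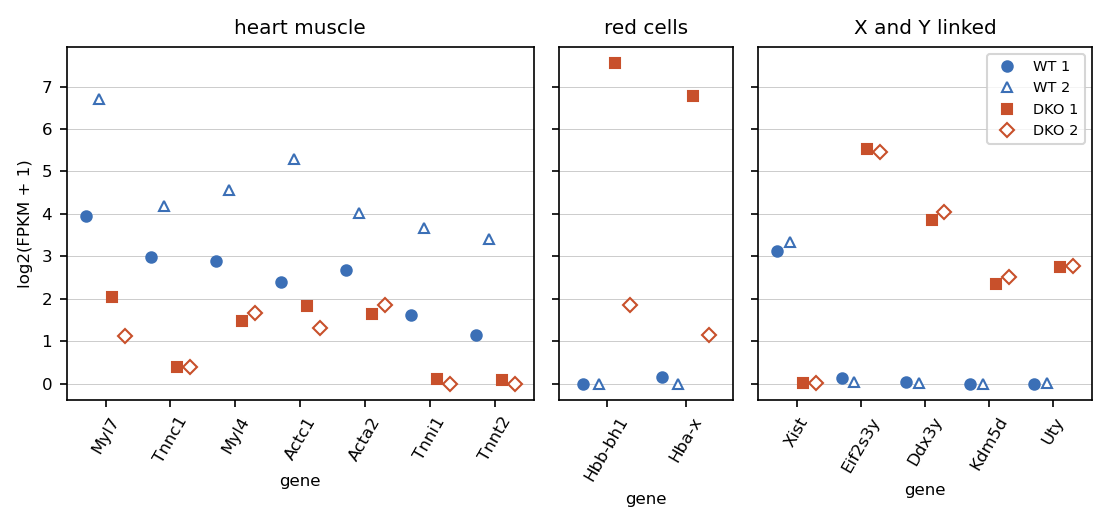
Level (log2(FPKM + 1), vertical) of heart muscle genes (left), globins (middle) and sex-linked genes (right) in each head library, WT in blue and DKO in red. WT replicate 2 is highest for all 7 heart genes, DKO replicate 1 for both globins, and the sex-linked genes separate WT from DKO.

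Signalling pathways had 0 called genes (limma) in each of the Nodal, Wnt, Bmp, Hedgehog, retinoic acid, Fgf and Notch lists, with 2 of 17, 11 of 36, 3 of 20, 3 of 11, 6 of 16, 4 of 23 and 3 of 20 tested members at an unadjusted p under 0.05, beside 16.8% of all genes. At 0.433% of all genes called, 0 calls in lists of these sizes does not set them apart. Of the Wnt list 23 of 36 lay above 0, beside 47.6% of all genes, with a median of 0.19. Sp5, a direct Wnt target, had 7.29 and 6.97 FPKM in WT and 2.73 and 2.79 in DKO (-1.11, adjusted p = 0.109, and 0.0258 with heads alone). Frzb, a secreted Wnt antagonist, had 13.3 and 18.8 in WT and 31.8 and 30.8 in DKO (0.94, adjusted p = 0.156). In the retinoic acid list Crabp2, which carries retinoic acid, had 431 and 304 in WT and 660 and 599 in DKO (0.80, adjusted p = 0.198). In these 3 genes the groups did not overlap.

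The pluripotency lists had no called gene, which does not set lists of this size apart at 0.433% of all genes called. Of 10 tested genes of the naive list 5 lay above 0, with a median of -0.0. Of 27 tested genes of the formative and primed list 0 passed (6 at an unadjusted p under 0.05, beside 16.8% of all genes), and the median was -0.17. Above 0 lay 7 of the 27, beside 47.6% of all genes. Both DKO heads were below both WT heads in 44.4%, beside 32.1% of all genes. At least 2-fold lower without overlap were 3, beside 1.09% of all genes. Some members reached the minimum only through DKO epiblasts, such as Nodal at 0 to 0.0228 FPKM and L1td1 at 0.112 to 0.379 in heads. Sall4, a zinc finger factor, had 106 and 146 FPKM in WT and 47.6 and 57.8 in DKO (-1.23, adjusted p = 0.0707, and 0.0439 with heads alone). Pou5f1, the gene of Oct4, had 1.42 and 5.24 in WT and 0.698 and 0.975 in DKO (-1.09, adjusted p = 0.285). WT heads were the high ones for both, and for Pou5f1 the WT heads also differed more from each other than the DKO heads did.

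Among genes of hypoxia and glycolysis 1 of 30 tested was called, beside 0.433% of all genes, and 2 with the 4 head libraries alone, beside 2.8%. The median was -0.34 beside -0.02, with 6 above 0, beside 47.6% of all genes. Car12, a carbonic anhydrase gene, had 3.45 and 2.55 FPKM in WT and 0.349 and 0.273 in DKO (-1.60 ± 0.17, SE, adjusted p = 0.0302). Pfkp, a phosphofructokinase gene, had 6.50 and 7.65 in WT and 1.81 and 2.00 in DKO (-1.47, adjusted p = 0.132, and 0.0164 with heads alone). Pfkl, the liver form of the same enzyme, had 215 and 251 in WT and 131 and 165 in DKO (-0.66, adjusted p = 0.154). The groups did not overlap in any of these 3 genes.

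In the cell cycle list Pttg1 was the 1 called gene of 34 tested, beside 0.433% of all genes, and the median was -0.09. With the 4 head libraries alone 1 was higher and 2 were lower. Cdc20, which activates the complex that degrades securin, had 358 and 327 FPKM in WT and 265 and 272 in DKO (-0.35, adjusted p = 0.118). Rrm2, a ribonucleotide reductase subunit, had 306 and 283 in WT and 422 and 437 in DKO (0.54, adjusted p = 0.0511, and 0.0367 with heads alone). Birc5, the gene of survivin, had 388 and 357 in WT and 358 and 336 in DKO (-0.10, adjusted p = 0.589). Of these, Rrm2 was high and Cdc20 low in both DKO heads, and Birc5 overlapped.

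The stages were compared for the 47 genes in libraries that the head comparison did not use as its groups. Between DKO and WT epiblasts at E6.5, 35.2% of 11265 genes passed the threshold in either direction. There the WT libraries come from another set, so that set and genotype cannot be told apart. Of the 47 genes, 22 passed in the epiblast in the direction of the head, 7 in the opposite direction, and 18 did not pass. Both tests draw their spread partly from the same libraries, and calls in the head favour genes of small spread. These counts are therefore not independent of the head calls. Rps3a1 had 298 to 308 FPKM in WT epiblasts and 45.9 and 52.2 in DKO epiblasts, and as in the heads the DKO libraries were the low ones. Hdac1 had 92.4 to 95.6 FPKM in WT epiblasts and 54.8 and 67.8 in DKO epiblasts. The WT heads, at 8.38 and 8.78, were thus the low group, and the DKO heads were near the DKO epiblasts.

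Heads of another mutant of the series, which lacked the histone methyltransferase gene Kmt2b, have 1 value per group that merges its replicates and were normalized in another table. The labels do not say whether the WT heads of the sets shared animals. The authors' merged values for Fggy were 2.01 FPKM in WT and 12.7 in the Kmt2b mutant. They were 19 and 68.2 for Hdac1, 2.74 and 13.3 for Gm13157, 14.6 and 3.33 for Csrp1, and 242 and 101 for Pttg1. For Rbm45 they were 24.6 and 25.1, and for Rps3a1 260 and 420. Rbm45, Rps3a1, Snhg6, Tsix, Hist1h2ai, Mrpl34 and Tmc4 moved against their direction in DKO heads. Every other called gene moved in the Kmt2b mutant in the direction of the DKO heads. Some did so by little, such as Gstcd at 12.9 and 11.2, Bax at 125 and 113 and Hist1h2ah at 201 and 225. The share of all tested genes with the same direction in both mutants was not computed. The agreement therefore has no background to be read against, and what lies behind it was not tested. No test was possible on these merged values. The merged WT values for Fggy, Gm13157 and Hdac1 lay above both WT heads of the Tet1/2 set. Those for Csrp1, Pttg1 and Rbm45 lay below both, and that for Rps3a1 lay between them.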

How the data were processed

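RNA values are those deposited by the authors as FPKM. TopHat2 (2.0.11), Cufflinks (2.0.2), STAR and mm9 are named in the submitters' processing notes, and their role is not given in the sources used here. Columns hold nearly the same sorted values from 1 FPKM upwards, so a difference in total RNA cannot be seen. Differences on log2(FPKM + 1) were tested in R 4.3.3 by limma 3.58.1, with a trend of the variance on the mean and two-sided p-values adjusted after Benjamini and Hochberg to a threshold of 0.05, for genes reaching 1 FPKM in 2 or more columns. The fit held WT heads, DKO heads and DKO epiblasts, and that for stages all 9 libraries. The script was tested on simulated data. The 5 small RNA genes, and 2 columns of no listed sample in the Kmt2b table, were left out.

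Named were up to 15 called genes in each direction by size with a mean of 5 FPKM in the higher group and no overlap, the Tet and Dnmt list, called and highest members of 40 gene lists, and the 12 largest differences between stages. The other called genes, further list members and the 4 promoters were chosen after their values were seen. Members and lists were chosen with earlier results of these data known. Gene order is that of GRCm38.p6 (10761 of 10867 genes placed). Alternatives changed the pseudocount, filter, trend, scaling and libraries, or added the replicate number as a block. A few genes are not reported here.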

Additional observations from a re-analysis of the deposited data

Results flagged for a closer look

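The difference between DKO and WT was itself tested between E8.5 head and E6.5 epiblast (limma, 9 libraries), and 2975 genes passed. Values below are the log2 difference in the head minus that in the epiblast. The WT epiblasts belong to another set, so set and genotype cannot be told apart in the epiblast, and sex-linked genes differed between DKO epiblasts.

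The highest values were 9.86 for Rn45s, a ribosomal RNA precursor, which was listed at 0 in both DKO epiblasts and stood at 2188 to 5158 FPKM in the heads, 5.59 for the pseudogene Oaz1-ps, and 4.67 for Rps28, also listed at 0 in both DKO epiblasts. Eif2s3y and Ddx3y on the Y chromosome had 8.40 and 6.41. Mixl1, a primitive streak gene, had 5.71 and was under 0.1 FPKM in every head. The lowest were -5.20 for Hist2h3b, -4.89 for Sf3a2, -4.06 for Hist2h3c2, -3.96 for Hist1h2ak, -3.83 for Xist and -3.77 for Myl7.

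The genes that follow were called in the head and also passed this test. The head difference is part of the value given, so that their choice favours its sign. Called genes of the other sign, such as Rps3a1 at 0.44 and Tmc4 at 0.53, did not pass. Of the genes that rose in DKO heads, the difference was higher in the head by 3.73 for Gm13157, 3.10 for Hdac1, 2.98 for Scoc, 2.54 for Fggy, 2.53 for Hist1h2af, 2.07 for Lamtor3, 1.69 for Ube2t, 1.62 for Gm13251, 1.59 for Hmgn2, 1.41 for Pfas, 0.81 for Trmt61b and 0.76 for Snhg6. Of those that fell, the value was -3.16 for Csrp1, -2.61 for Tsix, -2.16 for Hist1h2ag, -1.70 for Pttg1, -1.69 for Thg1l, -1.63 for Cap1, -1.32 for Pisd-ps3, -1.06 for Rbm45, -1.05 for Ptp4a2, -0.97 for Hist1h4i and -0.91 for Tmem242.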

How the results depend on the processing

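The count of 47 genes in the head was 28 with no filter on low values, 285 with the 4 head libraries alone, 160 with all 9 libraries and 542 with the 4 head libraries alone and a replicate block, the last chosen after seeing the data. Leaving out 1 library gave 3 to 290, the high values without a DKO epiblast. Of the 47 genes, 24 remained without the filter, 46 with all 9 libraries and 47 with the heads alone. The count for the difference between stages, 2975, was 1162 to 4051 with 1 library left out. With a replicate block in the 3-group fit the head count was 32 and the stage count 2356. Same-numbered libraries correlated at 0.061 (WT and DKO heads), 0.072 (WT heads and DKO epiblasts) and 0.199 (DKO heads and DKO epiblasts), and the labels do not say that numbers pair. The pseudocounts of 0.1 and 5, a minimum of 5 FPKM, no trend and a trimmed mean shift gave 43, 62, 57, 32 and 55. No gene past the threshold changed direction under these settings. Tet3, Trim28, Otx2 and Rax, which did not pass it, changed sign without 1 head library. With 2 libraries per group and 1 left out, the lone library is assumed to vary like the others. FPKM carry no depth, so low values such as those of Tet2 have no counting error here.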

Other observations

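Some genes that passed only with the 4 head libraries alone belong to no list, and those here were chosen after their values were seen. Pim1, a kinase gene, had 3.97 and 4.75 FPKM in WT heads and 0.291 and 0.624 in DKO heads (-1.88 on the log2 scale, adjusted p = 0.0783 with the spread of 3 groups and 0.0146 with heads alone). Crip1, a LIM-domain protein gene, had 29.3 and 32.8 in WT and 6.01 and 10.5 in DKO. Cox4i2 and Ndufa4l2, hypoxia-linked variants of respiratory chain subunits, had 18.2 and 20.1, and 14.6 and 11.5 FPKM, in WT, and 6.39 and 5.21, and 3.11 and 2.80, in DKO. Cd44, a hyaluronan receptor gene, had 1.19 and 0.938 in WT and 4.31 and 4.68 in DKO. The groups did not overlap in any of these 5 genes.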
